A study of Mus musculus with 3 samples.

Results

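The naive pluripotency transcription factors are 10 genes listed by name: Nanog, Pou5f1, Sox2, Klf2, Klf4, Klf5, Esrrb, Zfp42, Tfcp2l1 and Tbx3. They are 10 of the 27886 genes that appear in any of the 3 single-cell count tables of the study. All 10 were listed for mouse embryonic stem cells (mESC) and for cardiac precursor cell cultures (CPCC), and 9 were listed for beating cardiac bodies (CB). Pou5f1 has no value in CB, since a table lists only genes that reached at least 1 count in some cell of that table, and it was not set to 0.

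Naive pluripotency is the state of the epiblast cells of the preimplantation embryo, which stem cells keep in culture. Pou5f1 (Oct4), a POU factor, and Sox2, an HMG-box factor, bind DNA as a pair, and Nanog, a homeodomain factor, joins them at many of the same sites. The Krüppel-like factors Klf2, Klf4 and Klf5, the orphan nuclear receptor Esrrb, the Grainyhead-like factor Tfcp2l1 and the T-box factor Tbx3 link that core to signals from the medium: LIF acts through STAT3, inhibition of GSK3 relieves repression by Tcf7l1, and inhibition of MEK holds back ERK. Zfp42 (Rex1), a zinc finger protein, is the usual reporter of the naive state. Several of these genes also have roles after pluripotency is left: Klf2 in endothelium, Klf4 in mesenchyme and barrier epithelia, Klf5 in epithelia, Sox2 in neural and foregut cells, and Tbx3 in heart and limb.

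The promoters of 4 of the genes are shown, because these 4 differ in their CB level in the data below. Nanog and Zfp42 were near absent from CB, Klf2 was below its mESC level but still expressed, and Klf4 was above its mESC level. Each sequence is RefSeq's, on GRCm38.p6, from 250 bases before to 50 bases after the annotated start, 5′ to 3′ in the direction of the gene. Nanog's lies at chr6:122707239-122707538 on the plus strand, Zfp42's at chr8:43306960-43307259 on the minus strand, Klf2's at chr8:72318812-72319111 on the plus strand and Klf4's at chr4:55532426-55532725 on the minus strand. Capitals mark a joined Sox and octamer motif in Nanog and an octamer in Zfp42, both on the strand opposite to the gene.
Nanog: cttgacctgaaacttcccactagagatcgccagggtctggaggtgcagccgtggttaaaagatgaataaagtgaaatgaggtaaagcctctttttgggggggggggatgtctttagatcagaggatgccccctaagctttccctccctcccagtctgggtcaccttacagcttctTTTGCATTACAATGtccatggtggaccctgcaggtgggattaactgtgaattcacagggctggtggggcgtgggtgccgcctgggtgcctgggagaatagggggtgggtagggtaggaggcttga
Zfp42: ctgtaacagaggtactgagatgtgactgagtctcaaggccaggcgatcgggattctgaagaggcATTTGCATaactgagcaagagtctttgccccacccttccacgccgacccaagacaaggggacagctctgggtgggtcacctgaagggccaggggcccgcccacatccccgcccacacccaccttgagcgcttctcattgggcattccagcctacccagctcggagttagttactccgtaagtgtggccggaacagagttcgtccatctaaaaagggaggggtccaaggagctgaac
Klf2: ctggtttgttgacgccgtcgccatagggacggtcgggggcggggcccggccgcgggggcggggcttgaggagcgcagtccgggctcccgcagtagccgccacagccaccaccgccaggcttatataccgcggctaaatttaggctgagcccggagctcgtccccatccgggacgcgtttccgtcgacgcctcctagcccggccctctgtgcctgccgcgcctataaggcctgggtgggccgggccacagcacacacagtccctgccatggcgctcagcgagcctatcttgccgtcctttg
Klf4: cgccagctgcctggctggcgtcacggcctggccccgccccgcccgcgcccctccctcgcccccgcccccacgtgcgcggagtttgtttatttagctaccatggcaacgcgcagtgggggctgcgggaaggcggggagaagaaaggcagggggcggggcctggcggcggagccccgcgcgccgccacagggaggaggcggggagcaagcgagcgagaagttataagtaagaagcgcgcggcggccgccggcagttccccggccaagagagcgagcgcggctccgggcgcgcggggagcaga

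Promoter sequences were matched for 8 of the 10 genes, all but Klf5 and Tbx3. The joined motif was searched on both strands as the Sox letters CATTGT, then any base, then ATGCAAA, which are also the first letters of the octamer motif ATGCAAAT. It was found in 2 of 32544 promoters (0.00615%), which are both annotated starts of Nanog, and its first base lies at position -75 from the start shown. The octamer was found in 1.75% of all promoters and, among the 8 genes, in Zfp42, at position -186. The ratio of observed to expected CpG dinucleotides had a median of 0.387 over all promoters, with quartiles at 0.177 and 0.751. It was 0.974 in Klf4, 0.889 in Klf2, 0.819 in Sox2 and 0.656 in Tfcp2l1, against 0.441 in Zfp42 and 0.192 in the Nanog promoter shown. Both annotated starts of Pou5f1 (0.374 and 0.388) were close to the median, and those of Esrrb (0.266 and 0.318) were below it and inside the quartiles. The GC box GGGCGG occurred in Klf2, Klf4, Pou5f1, Sox2 and Zfp42 and in 35.9% of all promoters. The Esrrb motif TCAAGGTCA (0.412% of promoters) and the Krüppel-like motif GGGTGTGGC (1.35%) were not found in any of the 8 genes' windows.

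All cells were male F1 cells of a C57BL/6 by CAST/EiJ cross. The mESC were grown with serum, LIF and both inhibitors that define 2i medium, PD0325901 against MEK and CHIR99021 against GSK3. CPCC and CB both began as hanging-drop aggregates that were moved to ascorbic acid medium. For CPCC the embryoid bodies were then dissociated, plated in medium with EGF and Fgf2 and taken at the fourth passage. CB were grown separately, stayed in the ascorbic acid medium and were picked by eye as beating. Clones came from several blastocysts, and no label says which clone a pool of libraries holds. There was 1 sample per group, so the differences below have no replicate check and no p-value. There were 215 cells of mESC in 3 sequencing pools, 175 of CPCC in 2 and 232 of CB in 3. The tables shared no column name, and no cell was identical to another.

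Depth was similar between cultures and uneven between cells. The median was 1528316 counts per cell in mESC, 1437414 in CPCC and 1397869 in CB, and pools had medians from 804581 to 1855334. Levels are summed counts of a culture per 1000000 gene counts (CPM), with exact 95% Poisson intervals. Shares of cells with at least 1 count carry exact 95% Clopper-Pearson intervals. Where a share is 0, the limit that 3 cells of the total would give is printed instead. Intervals and limits cover counting error only, because the libraries had no molecular identifiers and copies of a molecule were counted as reads. In summed counts, fewer cells that express a gene and less RNA per cell cannot be told apart, and the shares of cells are therefore given beside the levels. In mESC no cell carried the fibroblast, endothelial, smooth muscle or cardiomyocyte marker list, as defined below, and 4 carried the neural list. The epithelial list was carried by 128 of 215 cells, and the stem cells themselves expressed much of it. In mESC, Wfdc2 was at 169 CPM, Elf3 at 153, Cdh1 at 95.4, Cldn4 at 58.6 and Epcam at 56.9, while Krt8 was at 0.225 CPM. The mESC table listed 2 of the 8 macrophage markers and 4 of the 7 endoderm markers, where 4 are needed, so the macrophage list could not be carried there and the endoderm list only in full. The cardiomyocyte list was carried by 1 CPCC cell and 9 CB cells, 8 of these in CB pool 2.

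In mESC all 10 factors were expressed, and each was detected in at least 89.8% of cells. Per kb of exon, Zfp42 (291 CPM per kb; pools 256 to 340) and Nanog (292; pools 236 to 322) led the order, and their pool ranges overlapped with each other and with no other factor. Klf2 (99.3 CPM per kb), Pou5f1 (67.2), Sox2 (48.8) and Tfcp2l1 (39.0) followed, and each overlapped with its neighbour in pool range. Klf5 (27.7), Esrrb (22.1) and Klf4 (18.6) formed a lower run of overlapping neighbours. Tbx3 was lowest, at 6.03 CPM per kb, below every other factor in every pool.

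The factors differed more from cell to cell than in detection. At an equal depth of 430000 counts per cell, which left 193 mESC cells, the coefficient of variation was smallest for Zfp42 (43.5%) and Nanog (50.2%). It was 52.7% for Tfcp2l1, 54.2% for Pou5f1, 58.6% for Esrrb, 61.9% for Klf5, 66.9% for Klf2 and 69.8% for Sox2. Tbx3 (85.4%) and Klf4 (98%) were the most uneven. The cell at the 10th percentile held 111 Zfp42 counts and the cell at the 90th held 371, while for Klf4 they held 1 and 54.

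The question put to CPCC was how much of this network the precursor cultures still hold. All 10 factors had a lower summed level in CPCC than in mESC, and 8 of 10 were lower by a log2 ratio of 1 or more, where 8.36% of all genes with at least 1 CPM in either culture were lower by as much. Ratios are of CPM + 1 and understate the change of low genes. The pools of CPCC stood far apart: pool 1 held from 3.29 to 23.4 times the CPM of pool 2 for 9 of the factors, and 1.23 times for Klf4, while the highest mESC pool held at most 2.17 times the lowest. The 8 became 9 with DESeq2 size factors, 10 with equal weight for every cell, 4 when CPCC pool 2 was left out and 10 when CPCC pool 1 was left out. The median log2 ratio of the 10 factors, which was -1.65, came to -0.95 without pool 2 and -3.28 without pool 1.

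**Figure D1:**
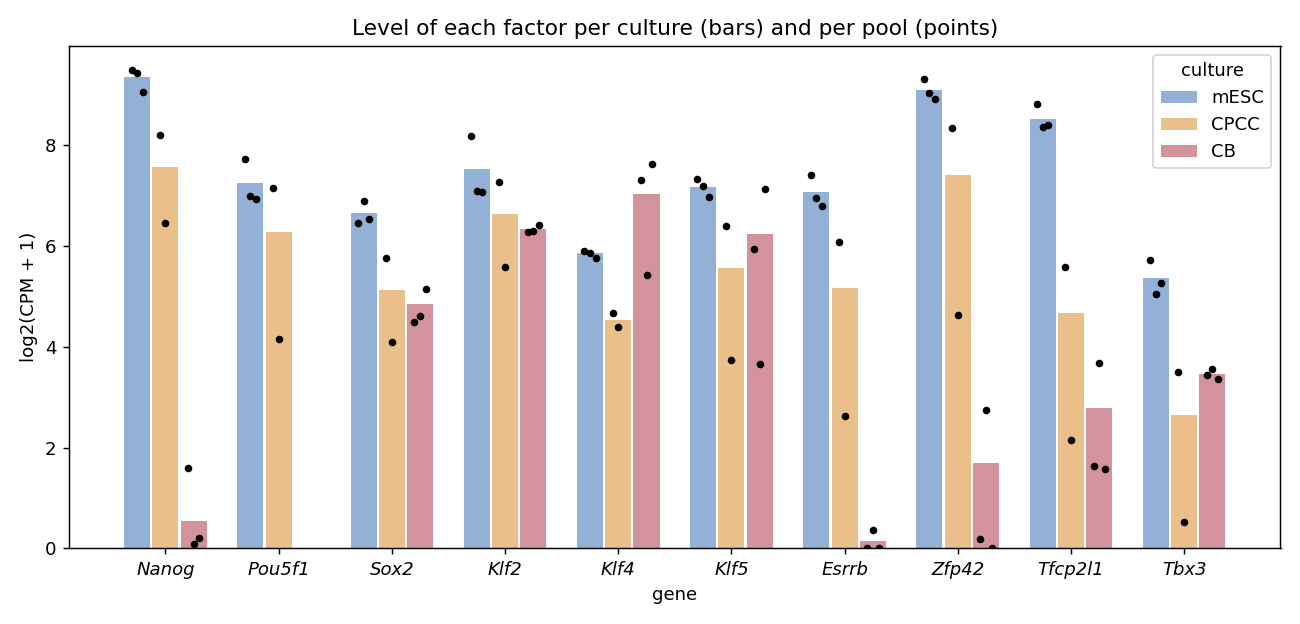
Level of each factor as log2(CPM + 1) in mESC, CPCC and CB; bars are the whole culture and black points the single pools. Nanog, Esrrb and Zfp42 nearly vanish in CB, Klf4 is highest in CB, and the CPCC points lie far apart for all factors but Klf4; Pou5f1 has no CB bar because that table does not list it.

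Nanog, chr6:122707489-122714633 (GRCm38), held 722, 693 and 529 CPM in the mESC pools and 295 and 87.3 CPM in the CPCC pools. Its level over the culture was 654 CPM (interval 651 to 656) in mESC and 188 CPM (186 to 190) in CPCC, a log2 ratio of -1.79. Pou5f1, chr17:35506018-35510772, held 210, 126 and 121 CPM in mESC and 141 and 16.7 CPM in CPCC (log2 ratio -0.97). The first CPCC pool lay inside the mESC range for Pou5f1 and the second far below it. Sox2, chr3:34650405-34652461, held 87.1, 118 and 91.4 CPM in mESC and 53.0 and 16.0 CPM in CPCC (log2 ratio -1.54).

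The ranges of Nanog and Sox2 did not overlap between both cultures. Zfp42, chr8:43295063-43306980 on the minus strand, held 640, 523 and 482 CPM in the mESC pools and 324 and 23.6 CPM in the CPCC pools (log2 ratio -1.69). Esrrb, chr12:86361117-86521628, held 170, 123 and 109 CPM in mESC and 66.8 and 5.17 CPM in CPCC (log2 ratio -1.91). Both showed the same split of CPCC into a pool with a moderate level and a pool with little.

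Tfcp2l1, which acts downstream of LIF and of GSK3 inhibition, and Tbx3 were the lowest relative to mESC. Tfcp2l1, chr1:118627945-118685168, held 450, 327 and 336 CPM in mESC and 47.0 and 3.42 CPM in CPCC, a log2 ratio of -3.86. Tbx3, chr5:119670669-119684724, held 52.1, 32.1 and 37.5 CPM in mESC and 10.3 and 0.442 CPM in CPCC, a log2 ratio of -2.72. Tfcp2l1 was detected in 38.3% of CPCC cells (interval 31.1 to 45.9%) and Tbx3 in 23.4% (17.4 to 30.4%), against 96.3% and 92.6% of mESC cells.

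The Krüppel-like factors did not move as a block. Klf2, chr8:72319033-72321656, held 290, 136 and 133 CPM in mESC and 154 and 46.9 CPM in CPCC (log2 ratio -0.88), so the first CPCC pool lay inside the mESC range. Klf5, chr14:99298691-99315036, held 161, 146 and 124 CPM in mESC and 83.2 and 12.3 CPM in CPCC (log2 ratio -1.61). Klf4, chr4:55527143-55532466 on the minus strand, held 59.2, 57.3 and 53.6 CPM in mESC and 24.4 and 19.9 CPM in CPCC (log2 ratio -1.32). The CPCC pools of Klf4 were closer to each other than those of any other factor.

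The number of factors found together in a cell showed how the CPCC level was made up. Of the 9 factors listed in all tables, the median cell held 9 in mESC, 4 in CPCC and 2 in CB. All 9 were detected in 183 of 215 mESC cells (85.1%), in 22 of 175 CPCC cells (12.6%; interval 8.05 to 18.4%) and in 0 of 232 CB cells, which allows a share of up to 1.29%. At least 5 were detected in 96.3% of mESC cells, 49.1% of CPCC cells (41.5 to 56.8%) and 1.72% of CB cells (0.472 to 4.36%). At equal depth these shares were 100%, 47.1% and 0.952%.

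The CPCC cells spread over the whole range of 0 to 9 factors, with 45 of 175 cells at 4 to 6. In pool 1 the median cell held 8 factors and 84.8% of cells held at least 5, while in pool 2 the median was 3 and 19.8% held at least 5. Pool 2 still contained 13 cells with 6 or more factors, and pool 1 contained 3 cells with 2 or fewer. The 86 CPCC cells with at least 5 factors had a median of 1440953 counts and the 89 with fewer had 1426182. The 49 cells with 2 or fewer were shallower, with a median of 1199009 counts and 7636 genes, against 9805 genes in the cells with at least 5. The 8 mESC cells with fewer than 5 factors had a median of 1041 counts.

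**Figure D2:**
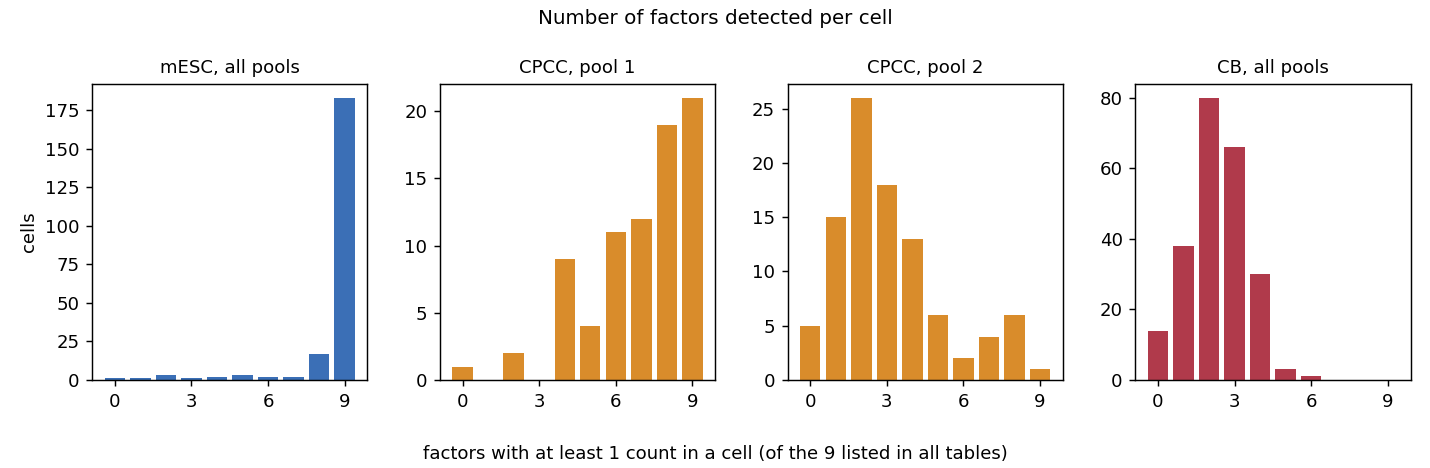
Number of cells (vertical axis, scaled separately in each panel) by the number of factors with at least 1 count, of the 9 listed in all tables, in mESC, both CPCC pools and CB. 183 mESC cells stand at 9 factors, CPCC pool 1 peaks at 9 and CPCC pool 2 at 2, and no CB cell passes 6.

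Each factor was then set against the other 9 in the same CPCC cell, at 430000 counts per cell. Tfcp2l1 and Esrrb were the rarest in cells without the others. In cells with 0 to 3 other factors Tfcp2l1 was detected in 1 of 64 cells (1.56%; interval 0.0396 to 8.40%) and Esrrb in 2 of 65 (3.08%; 0.375 to 10.7%). In cells with 7 to 9 others the shares were 71.7% and 94.4%. Zfp42 went from 13.4% to 96.2%, Pou5f1 from 20% to 100%, and Nanog and Sox2 from 26.4% each to 96.2% and 94.4%.

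The Krüppel-like factors were found in cells that held little else of the network. In cells with 0 to 3 other factors, Klf2 was detected in 54.9%, Klf4 in 56.3% and Klf5 in 42.1%. Klf5 and Klf2 still reached 98.1% and 96.2% in cells with 7 to 9 others. Klf4 was the exception, at 41.7% with 4 to 6 others (interval 22.1 to 63.4%) and 62.9% with 7 to 9 (49.7 to 74.8%), so its intervals overlapped throughout. Tbx3 was in few cells even beside 7 to 9 others, at 35.9% (24.3 to 48.9%).

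**Figure D3:**
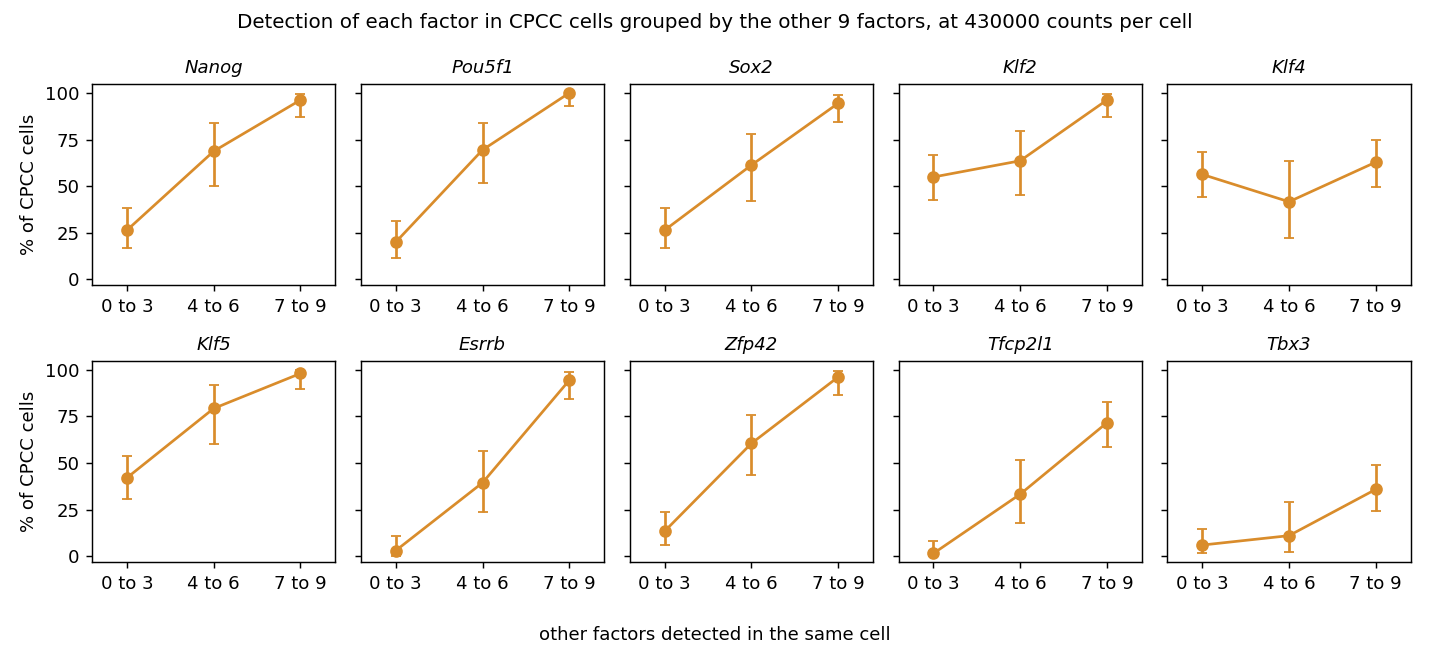
Share of CPCC cells with at least 1 count of a factor (vertical axis, percent) by the number of the other 9 factors detected in the same cell (horizontal axis), after thinning every cell to 430000 counts; bars are exact 95% intervals. Esrrb and Tfcp2l1 start near 0 and climb to 94.4% and 71.7%, while Klf4 stays between 41.7% and 62.9%.

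CPCC cells that held most of the factors still differed from the stem cells in some of them. For each factor, cells of both cultures with at least 6 of the other 9 factors were compared, so that the factor itself did not choose the cells. This left 75 to 80 CPCC cells and 204 or 205 mESC cells. In these cells Pou5f1 was at 171 CPM in CPCC against 151 CPM in mESC (log2 ratio 0.18), and Klf2 was at 187 against 184 CPM (0.02). Zfp42 (log2 ratio -0.47), Sox2 (-0.55), Klf5 (-0.63), Esrrb (-0.75) and Nanog (-0.78) were lower by less than 1.

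Tfcp2l1, Tbx3 and Klf4 remained far below the stem cells even there. Tfcp2l1 was at 54.1 CPM in these CPCC cells against 369 CPM in mESC, a log2 ratio of -2.75, and the median cell held 15.8 CPM against 361 CPM. Tbx3 was at 10.8 against 40.0 CPM (log2 ratio -1.79), and Klf4 at 21 against 56.8 CPM (-1.39). The summed level of Klf4 in the CPCC cells with fewer other factors was 22.9 CPM, close to that in these cells, although it was detected in 50.5% of them against 68.8% and the median cell held 0.175 against 9.58 CPM. For Esrrb the same 2 classes of CPCC cells held 79.3 and 0.675 CPM.

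Most of the cells with 6 or more other factors came from CPCC pool 1, 61 to 63 cells a factor, and 13 to 18 came from pool 2. The split was present inside pool 2 as well. There, Zfp42 was at 253 CPM in the cells with at least 6 other factors and at 4.13 CPM in the rest, Pou5f1 at 124 and 7.78 CPM, and Nanog at 483 and 53.6 CPM. Klf2 differed between the pools, with 200.3 CPM in the pool 1 cells and 76.8 CPM in the pool 2 cells, a log2 ratio to mESC of 0.12 and -1.25. Esrrb (log2 ratios -0.67 and -1.56) and Zfp42 (-0.41 and -1.12) were lower in the pool 2 cells too, and Pou5f1 was above mESC in pool 1 (0.22) and below it in pool 2 (-0.28). Nanog (-0.82 and -0.44) and Sox2 (-0.61 and -0.08) were nearer to mESC in the pool 2 cells. Tfcp2l1 (log2 ratios -2.66 and -3.54), Tbx3 (-1.64 and -3.78) and Klf4 (-1.26 and -2.91) were below mESC by more than 1 in both.

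**Figure D4:**
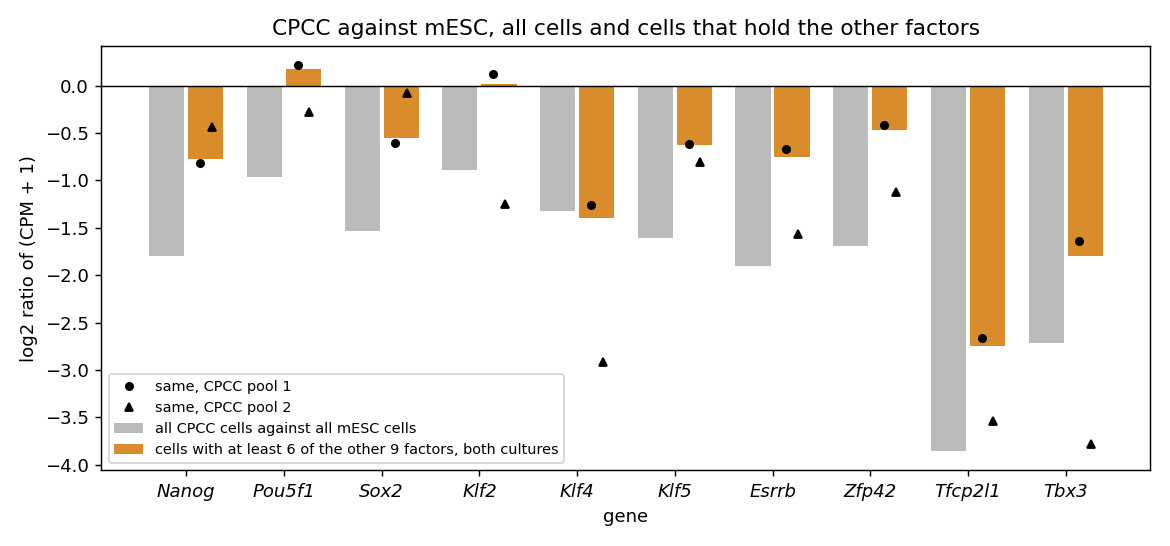
Log2 ratio of CPM + 1, CPCC against mESC, for each factor: grey bars use all cells, orange bars only cells of both cultures with at least 6 of the other 9 factors, and black symbols give the orange value for each CPCC pool. Pou5f1 and Klf2 come to 0.18 and 0.02 in the orange bars, while Tfcp2l1, Tbx3 and Klf4 stay at -2.75, -1.79 and -1.39.

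Other pluripotency genes stood on both sides of their stem cell level. A list of 20 companions had 10 lower and 1 higher by a log2 ratio of at least 1 in CPCC, where 8.36% and 17.5% of all genes were, with a median of -0.87, against a median of -0.01 over all genes with at least 1 CPM. Prdm14, a repressor of differentiation genes, had a log2 ratio of -3.19, Tcl1 had -2.97, Fbxo15 had -2.25 and Dppa3 (Stella) had -2.07. At the other end stood Lin28a, an RNA-binding protein that blocks let-7 maturation (12.4 against 1.53 CPM, log2 ratio 2.41), and Utf1 (0.29).

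Within CPCC the summed companions were highest in the cells with the most factors. The CPCC cells were grouped by the 9 factors into 49 cells with 0 to 2, 50 with 3 to 5 and 76 with 6 to 9, and the companions summed to 320.2, 1139 and 9113 CPM in these classes. The classes were unevenly split between the pools, with 3, 13 and 63 cells from pool 1 and 46, 37 and 13 from pool 2, so a sum over both pools cannot tell a difference between classes apart from one between pools. Within pool 1 the companions summed to 268, 772 and 8927 CPM, and within pool 2 to 323, 1302 and 10895 CPM. Dppa5a made up most of the sum with 6 to 9 factors, at 4750 CPM in pool 1 and 6924 CPM in pool 2. Lin28a went the other way in pool 2, at 11.5 CPM with 3 to 5 factors and 3.02 CPM with 6 to 9. In the 76 cells Utf1 stood at 463 CPM, above its 183 CPM in mESC. Dppa2 (143 against 86.7 CPM) and Lin28a (21.7 against 1.53 CPM) were above mESC there too. Tcl1 was at 63.5 CPM there and Prdm14 at 18.0 CPM, below their 215 and 77.0 CPM in mESC. Of 9 genes of the formative and primed states, 3 were higher in CPCC than in mESC over the whole culture (Fgf5, Pou3f1 and Dnmt3b), 1 was lower (T, log2 ratio -1.37), and the median was -0.30, where 17.5% and 8.36% of all genes were higher and lower. Otx2 (-0.80) and Nodal (-0.67) were among the 5 between. Dnmt3b, a de novo DNA methyltransferase, was at 270.3 CPM in these 76 cells (pool 1 at 287 CPM, pool 2 at 108 CPM) and 48.5 CPM in mESC. Fgf5, a marker of the postimplantation epiblast, was at 18.8 CPM in the pool 2 cells with 6 to 9 factors and 60.7 CPM in those with 3 to 5, while in pool 1 it had counts only in the class with 6 to 9 (9.19 CPM).

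Markers of other cells differed between the same classes, which are unevenly split between the pools. Smooth muscle markers summed to 8365, 10254 and 1618 CPM in the cells with 0 to 2, 3 to 5 and 6 to 9 factors, fibroblast markers to 1105, 874 and 28.3 CPM, and macrophage markers to 5860, 2814 and 60.7 CPM. All 19 CPCC cells that carried the macrophage list were in pool 2. There these markers summed to 6130, 4059 and 619 CPM in the same classes, against 0, 0 and 2.47 CPM in pool 1. Within pool 1 the smooth muscle markers summed to 15301, 13720 and 1663 CPM and the fibroblast markers to 1072, 364 and 25 CPM, and within pool 2 to 8046, 8720 and 1188 CPM and to 1106, 1099 and 60 CPM. Epithelial markers had no common course, with 1073, 2946 and 1717 CPM in pool 1 and 340, 757 and 927 CPM in pool 2. Krt8 was lower with 6 to 9 factors than with 3 to 5 in both pools, and Epcam was higher. Stem cells expressed Epcam, Cdh1, Cldn4, Wfdc2 and Elf3, so the epithelial sums do not set other cells apart from stem cells. The part of these cells in the level of the factors over the whole culture was not tested.

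The lists for the signals behind the factors were compared in the same way. Of 7 listed targets of ERK, which the MEK inhibitor of the stem cell medium holds back, 5 were higher and 1 was lower in CPCC, where 17.5% of all genes were higher by as much. Dusp6, a phosphatase of ERK, was at 112 against 3.02 CPM (log2 ratio 4.81), Etv4 at 17.6 against 0.0826 CPM (4.11), Egr1 at 63.0 against 3.58 CPM (3.80) and Myc at 58.5 against 3.74 CPM (3.65). Etv5 was the lower one, at 81.1 against 195 CPM (-1.25). Within pools, Etv5 was highest in the cells with 6 to 9 factors, at 122 CPM in pool 1 (42.9 CPM with 3 to 5 and 36.6 CPM with 0 to 2) and 169 CPM in pool 2 (57.2 and 44.5 CPM). Etv4 was highest there too, at 33.5 CPM in pool 1 (3.95 and 9.57 CPM) and 14.3 CPM in pool 2 (12.4 and 4.79 CPM). So was the sum of the ERK targets, at 395 CPM in pool 1 (213 and 160 CPM) and 451 CPM in pool 2 (414 and 345 CPM). Dusp6 was lowest there, at 65.5 CPM in pool 1 (83.0 and 86.5 CPM) and 137 CPM in pool 2 (166 and 142 CPM). Egr1 and Myc had no common course in the pools. Of the 9 genes of LIF and STAT3 signalling, 1 was higher (17.5% of all genes were), Jak2, with a log2 ratio of 1.69, and Socs3, the feedback inhibitor of STAT3, had -0.36. Of the 6 genes of Wnt signalling, Tcf7l1, the repressor of Esrrb, Tfcp2l1 and Klf2, was the only one lower by as much (8.36% of all genes were), with a log2 ratio of -1.03.

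In CB the 10 factors parted company. Of the 9 listed factors 7 were lower than in mESC by a log2 ratio of 1 or more, where 14% of all genes were, and Klf4 was higher by as much, where 30.8% of all genes were. The median of all genes was 0.29 in this comparison (0.13 after TMM scaling and 0.07 after DESeq2 scaling), and the median of the 9 factors was -1.90. Against CPCC, 4 of the 9 were lower by as much (9.44% of all genes) and 1 was higher (21.3% of all genes). The higher one was again Klf4, with a log2 ratio of 2.50, above 0 in all 6 pairs of pools. Tbx3 (0.82), Klf5 (0.68), Sox2 (-0.28) and Klf2 (-0.30) stood on both sides of 0 over the pairs of pools. Without CPCC pool 1 the ratio of Tfcp2l1 went from -1.89 to 0.64. Both comparisons use the same CB cells.

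Nanog, Esrrb, Zfp42 and Tfcp2l1 were near absent, each detected in at most 6.03% of CB cells. Nanog held 2.04, 0.053 and 0.146 CPM in the CB pools, 155 counts in all, of which 80.0% lay in a single cell. Esrrb was found in 2 of 232 cells (0.862%; interval 0.105 to 3.08%). Zfp42 held 0.128, 5.66 and 0 CPM and was detected in 10 cells, and Tfcp2l1 held 2.12, 11.9 and 2.0 CPM and was detected in 13 cells. The log2 ratios to mESC were -8.81 for Nanog, -7.41 for Zfp42, -6.92 for Esrrb and -5.75 for Tfcp2l1. At least 1 of the 4 was detected in 28 CB cells, at least 2 in 9 cells, at least 3 in 2 cells and all 4 in 0 of 232, which allows a share of up to 1.29%.

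RNA of each of the other 5 was still detected in at least 26.7% of CB cells. Klf2 held 77.0, 77.7 and 84.1 CPM in the CB pools, below every mESC pool (log2 ratio -1.18, and -0.74 without mESC pool 1), and was detected in 41.4% of cells. Sox2 held 21.6, 23.5 and 34.3 CPM (log2 ratio -1.82) in 31.9% of cells, and Tbx3 held 9.78, 10.9 and 9.27 CPM (-1.90) in 26.7% of cells. The pools of each of these 3 lay close together and below the mESC pools.

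Klf5 and Klf4 varied between CB pools. Klf5 held 60.9, 11.6 and 139 CPM, and the third pool lay inside the mESC range (log2 ratio over the culture -0.93, -1.10 after TMM scaling, -1.16 after DESeq2 scaling, -1.02 with equal weight for every cell, and -2.35 without CB pool 3, -0.32 without CB pool 2 and -1.01 without mESC pool 3). Klf4 held 157, 41.8 and 198 CPM, so that 2 pools were above all mESC pools and 1 was below them. Its log2 ratio of 1.17 (1.0 after TMM scaling and 0.94 after DESeq2 scaling) came to 1.69 without CB pool 2 and to 0.46 without CB pool 3. Klf4 was detected in 75.4% of CB cells against 89.8% of mESC cells, and its upper cells were higher in CB: the 90th percentile cell held 389 CPM in CB and 134 CPM in mESC.

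Per kb of exon, Klf2 (43.5 CPM per kb) and Klf4 (42.4) led CB, followed by Klf5 (14.4) and Sox2 (13.5), with overlapping pool ranges between neighbours. Tbx3 (1.51 CPM per kb) lay below these 4 in every pool.

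The CB cells in which each factor was detected differed. Cells were grouped by whether they carried a marker list, which means 10 counts or more in at least 5 genes of a list of 10 (3 of 6 for smooth muscle and neural, 4 of 7 for endoderm). This is a range of a score and not a cell type. A cell can carry several lists: of 108 cells with the fibroblast list, 57 carried another list too. The endothelial list was carried by 22 cells, all in pool 2. Cells 1 marker short of a list numbered 8 for fibroblast, 5 for epithelial, 1 for endothelial and 3 for endoderm.

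Klf2, a factor induced by flow in endothelium, was detected in 19 of the 22 cells with the endothelial list (86.4%; interval 65.1 to 97.1%), at 231 CPM. In the other 56 cells of the same pool it was detected in 25%, at 25.6 CPM. In pools 1 and 3, which had no such cell, Klf2 went with the fibroblast list: it was detected in 59.6% of those cells against 4.55% of the rest in pool 1, and in 53.8% against 18.2% in pool 3. The level in these fibroblast-list cells was 104 and 125 CPM.

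Klf4 was broader. It was detected in 92.6% of cells with the fibroblast list (interval 85.9 to 96.7%), at 189 CPM, and in 60.5% of the other cells (51.3 to 69.1%), at 73.6 CPM. The direction was the same in each pool: 187 against 72.9 CPM in pool 1, 64.4 against 37.1 CPM in pool 2 and 219 against 156 CPM in pool 3. It was also detected in 81.1% of cells with the epithelial list, but its level there was lower than in the other cells of each pool: 74.9 against 190.1 CPM, 14.6 against 55.6 CPM and 162 against 219 CPM.

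Sox2 and Klf5 went with the epithelial list, which 74 cells carried. Sox2 was detected in 71.6% of these cells (interval 59.9 to 81.5%) and in 13.3% of the others (8.42 to 19.6%). Within pools the shares were 75% against 11.3%, 60% against 17% and 78.8% against 11.5%. Klf5 was detected in 93.8% against 18.9% in pool 1 and in 100% against 40.4% in pool 3, at 194 and 333 CPM in the epithelial-list cells. In pool 2 the epithelial-list cells held 13.6 CPM of Klf5 and the others 10.6 CPM, with shares of 20% and 13.2%. Of the 25 epithelial-list cells of pool 2, 15 had a count of Sox2 and 5 a count of Klf5, so they were not uniform for either factor. Sox2 was also detected in 8 of the 9 cells with the neural list.

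What was left of Zfp42 and Tfcp2l1 sat in a few cells. The endoderm list was carried by 7 CB cells, 6 of them in pool 2, and all 7 carried the epithelial list too. Tfcp2l1 was detected in 7 of 7 (95 CPM) and Zfp42 in 6 of 7 (60.4 CPM), and the 6 were the pool 2 cells. In the other 225 CB cells Zfp42 was detected in 4 cells and Tfcp2l1 in 6. Nanog was detected in 1 of the 7 cells at under 10 counts, Sox2 in 0 of 7 (which allows a share of up to 42.9%), and no cell with the fibroblast list had a count of Zfp42 or Tfcp2l1 (0 of 108, which allows a share of up to 2.78%). Tbx3 was spread thinly, in 22.7% to 57.1% of cells over the lists drawn.

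**Figure D5:**
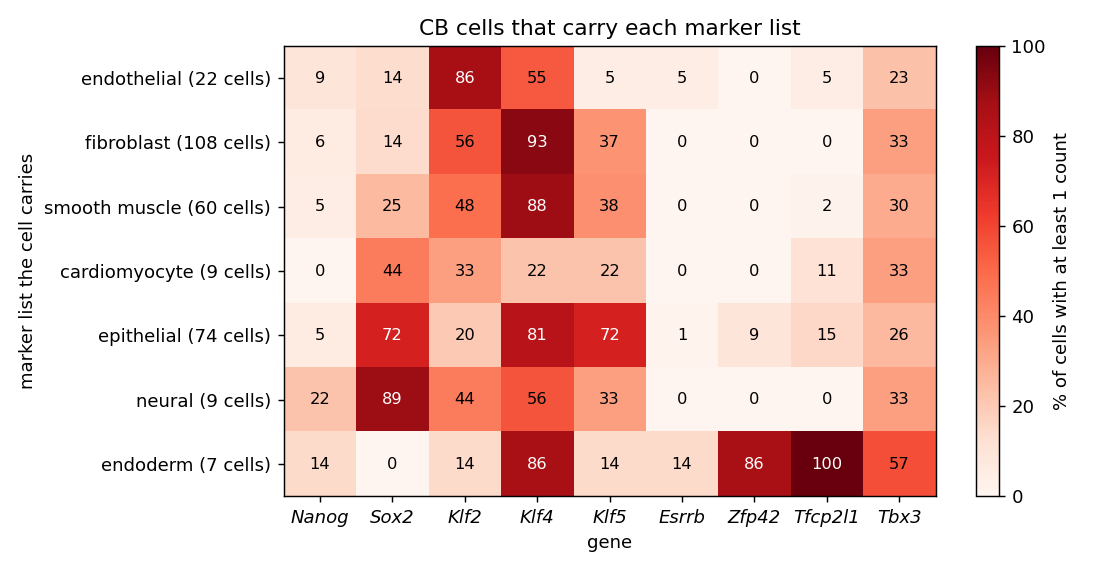
Share of CB cells with at least 1 count of each factor (colour and number, percent) among cells that carry each marker list (rows; a cell can be in several rows). Klf2 stands out in the 22 endothelial-list cells (86.4%), Sox2 and Klf5 in the 74 epithelial-list cells (71.6% each), and Zfp42 and Tfcp2l1 in the 7 endoderm-list cells.

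Related genes in CB were compared with mESC against the same background of 14% lower and 30.8% higher. Of the 20 companions 14 were listed in CB, and 12 of the 14 were lower than in mESC and 1, Lin28a, was higher (log2 ratio 1.43), with a median of -5.43. Fbxo15 (-7.28), Utf1 (-6.58), Dppa2 (-6.41) and Tdgf1 (-6.05) were the lowest. Of the 12 other Krüppel-like factors compared, 4 were higher and 2 were lower, shares near that background. Klf7 (log2 ratio 3.86) and Klf6 (2.80; 249 against 34.8 CPM) led, and Klf8 (-2.79) and Klf15 (-1.27) were lower. Of the 11 other Sox genes compared, 8 were higher, led by Sox11 (217 against 3.13 CPM, 5.72), Sox6 (4.08), Sox7 (3.92) and Sox4 (3.68). Sox15, a Sox gene also expressed in stem cells, was lower, with a log2 ratio of -2.75. Of the 9 LIF and STAT3 genes 7 were higher, among them Jak2 (2.91), Socs3 (2.62), Il6st (1.25) and Stat3 (1.20).

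How the factors varied together from cell to cell differed in size between cultures. Spearman's rho was taken between pairs over cells with at least 100000 counts and 2000 genes, within each pool, and averaged over pools; cells of a pool share a library and sequencing run, and rho is a description. In mESC (202 cells) the median of 45 pairs was 0.11. Nanog with Zfp42 was highest at 0.43, followed by Sox2 with Klf4 at 0.40, Klf2 with Zfp42 at 0.36 and Nanog with Klf2 at 0.34. In CPCC (167 cells) the median was 0.39, with Nanog and Zfp42 again highest at 0.69, then Nanog with Pou5f1 at 0.68 and Pou5f1 with Zfp42 at 0.67. Klf4 was apart here too, with a median of 0.05 to the other factors, but this averages pools that differed. Klf4 with Nanog was at -0.36 in 1 pool and 0.16 in the other, and Klf4 with Klf5 at -0.18 and 0.30. Only with Klf2 (0.11 and 0.26) did Klf4 have the same sign in both pools. In CB (217 cells) the 15 pairs with Zfp42 or Esrrb had no value in some pool and were left out of the average. Among the others Sox2 with Klf5 was highest at 0.39, and Sox2 with Klf2 was lowest at -0.29.

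The genes most like the summed level of the factors were named in the same way, over all cells and among genes detected in at least 25% of them. In CPCC (175 cells, 12061 genes) they were Alpl, the alkaline phosphatase used to stain stem cell colonies, with rho of 0.70, then Tdrp, Dppa5a, Mybl2 and Gm6798, the last at 0.68. In mESC (215 cells, 11901 genes) they were Sgk1 at 0.45, then Gm10184, Ccnb1, Calcoco2 and Actb, the last at 0.41. Some transcripts could share reads with a factor. Nanog-ps1 held 0.0619% of the Nanog counts in mESC and Zfp42-ps1 held 0.18% of those of Zfp42. Sox2ot, in which Sox2 lies, held 2.26%, 7.04% and 3.25% of the Sox2 counts in mESC, CPCC and CB. Tbx3os1, an opposite-strand transcript of Tbx3, held 0.919% of the Tbx3 counts in mESC and 8.50% in CB. Since the use of strand is not given in the sources used here, overlapping reads could not be separated.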

How the data were processed

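The study captured single cells with the Fluidigm C1 system, made full-length SMART-Seq v4 cDNA and Nextera XT libraries, and aligned paired reads to GRCm38 with STAR 2.7 in Partek Flow. The authors deposited 1 table per culture: estimated counts in mESC and CB (28.9% and 30.8% of values above 0 not whole) and whole counts in CPCC, all unscaled. These were not whole counts throughout as planned, and values were rounded for intervals, thinning and scaling factors only. In CPCC, 208 rows without a gene, 23 symbols turned into dates (0.139% of counts) and 2 empty columns that could not be mapped were left out. No cells were removed and no doublet caller was run, since chambers had been inspected by microscope. Pools are not replicates.

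Counts were summed per culture, scaled to CPM and compared as log2(CPM + 1), with no test because each group has 1 sample. A log2 ratio of at least 1 is called, against genes with at least 1 CPM in either culture. Detection means at least 1 count; a marker counts at 10. Alternatives used edgeR 4.0.16 (TMM) and DESeq2 1.42.0 (size factors) under R 4.3.3, with Python 3.11.15, pandas 2.3.3 and scipy 1.17.1. The ratio step was tested on simulated data, and thinning was checked on the mESC counts for the total and the Nanog share. Gene positions and exon lengths come from GENCODE release M21 (GRCm38). The text names the 10 factors, at most 4 highest and 4 lowest genes of a list that a count turns on, and the 5 genes most like the factors in mESC and CPCC. Members and lists were chosen with earlier results of these data known. The values of 1 companion gene are not reported here.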

Additional observations from a re-analysis of the deposited data

How the results depend on the processing

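Pools decided most: the CPCC value is a mixture of both pools. Leaving out each pool in turn moved the median log2 ratio of the factors between -3.28 and -0.95 for CPCC against mESC, with 4 to 10 factors lower, between -2.35 and -1.89 for CB against mESC, and between -0.93 and 0.76 for CB against CPCC. Without CPCC pool 1 that last median was above 0 (0.76), as was Tfcp2l1 (0.64), whose range was -3.07 to 0.64. The share of cells with at least 5 factors ranged from 94.4% to 98.6% in mESC and from 19.8% to 84.8% in CPCC, where the median number ranged from 3 to 8.

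Scaling and weighting kept the sign of the 3 medians. For CPCC against mESC the median was -1.64 with TMM factors, -1.69 with DESeq2 size factors, -1.63 with the cell filter (100000 counts and 2000 genes), -1.66 with a pseudocount of 0.1 and -1.54 with one of 10. For CB against mESC it was -2.06, -2.12, -1.99 and -1.55 with TMM, DESeq2 and pseudocounts of 0.1 and 10, and -1.83 when every cell had equal weight. For CB against CPCC it was -0.30 with library totals, -0.48 with TMM, -0.49 with DESeq2, -0.36 with equal weight, -0.31 with the cell filter and -0.27 with a pseudocount of 10. With equal weight, Tbx3 in CB against mESC turned to 1.55: 1 cell with 40 counts in all held 1 of Tbx3, and the mean over cells was 116 CPM with it and 8.07 CPM without it. With the cell filter added, an alternative chosen after seeing the data, the 3 medians were -1.55, -2.14 and -0.34. Selecting cells by the other factors was also chosen after seeing the data.

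At least 5 factors were found in 100% of mESC cells after thinning and also after the cell filter. In CPCC the median number was 5 with the cell filter and 3 with detection at 5 counts, which left 0.431% of CB cells with 5 factors. With 1 marker more, 2 CB cells carried the neural list, and Sox2 was detected in both (100%). No paired analysis was possible because replicate numbers are missing from the labels and columns, and no result comes from a test.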
